A study of Mus musculus with 6 samples.

Results

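The genes described here are 32 nuclear genes for subunits of complex III, complex IV and ATP synthase of the mitochondrial inner membrane, with cytochrome c and the inhibitor of ATP synthase. They were chosen by name: 9 genes of complex III, Cycs for cytochrome c, 6 genes of complex IV that have no muscle-specific form in the list, 15 genes of ATP synthase, and Atpif1 for the inhibitor. Of these 32, 31 were among the 20121 genes of the deposited tables, and all 31 passed the filter on low counts that left 14877 genes for testing. Cox5b of complex IV was not analysed here, so 5 genes of that complex remained.

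RNA was sequenced from whole hearts of 14-day-old pups, whose strain background was a mix of ICR and C57BL/6. The mutant group, Myh6-Cre; TRalphaAMI, held 3 pups with Cre recombinase under the heart muscle promoter of Myh6 and with a knock-in at the receptor gene. Once recombined by Cre, the knock-in makes a dominant negative receptor, TRalpha, that blocks the response to thyroid hormone. The control group, TRalphaAMI, held 3 littermates with the same allele and no Cre, so both groups carried the allele. The comparison addresses what in the young heart depends on thyroid hormone signalling in heart muscle cells. A group with Cre alone was not analysed here, so Cre itself and the mutant receptor cannot be told apart.

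Complex III takes electrons from ubiquinol and hands them to cytochrome c, complex IV passes them from cytochrome c to oxygen, and both pump protons out of the matrix. ATP synthase lets the protons back through a rotating ring of c subunits and uses that rotation to make ATP in its F1 head. Heart muscle is packed with mitochondria, and thyroid hormone is known to raise respiratory capacity in the heart around birth and in the adult.

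The libraries held 43314706 to 62095277 counts. The genes of the mitochondrial genome took 17.8% ± 1.01 of the counts in mutant hearts and 24.0% ± 1.41 in control hearts (SD, n = 3 each). Of these genes, mt-Co2, mt-Co3 and mt-Atp6 had almost no counts. Thra, the gene that carries the allele, had a log2 fold change of 0.83 ± 0.09 (SE), but a gene's count does not separate the knock-in transcript from the normal one. Levels are given as CPM, counts scaled to a common library size with TMM, a method that holds the bulk of the genes level between libraries. Where different genes are compared, levels are given as the deposited RPKM, which divides by gene length and by library total. RPKM is not scaled with TMM, so differences between the groups in RPKM are not the same as in CPM. Fold changes are mutant over control on the log2 scale with their SE, from edgeR's quasi-likelihood test on the counts, and a gene was called at a Benjamini-Hochberg adjusted p under 0.05 over all genes tested.

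Of the 31 genes, 27 were called lower in mutant hearts, 1 was called higher and 3 were not called. Of all genes tested, 19.5% were called lower and 18.1% higher, together 37.5%. The gene called higher was Atpif1, and the genes not called were Cox7c, Atp5l and Atp5g2. The median log2 fold change of the 31 genes was -0.67, which is 62.7% of the control level, against -0.00 for all genes tested. All 9 genes of complex III were lower, with a median of -0.68. For complex IV 4 of 5 were lower, with a median of -0.67, and for ATP synthase 13 of 15, with a median of -0.66. Mutant and control hearts had separate ranges for 29 of the 31 genes, 28 of them lower and 1 higher in mutant hearts. Over all genes tested the same held for 49.8%, with 25.4% lower and 24.4% higher. The medians of the complexes differed by less than the SE of any single gene, so no order among the complexes can be read from them.

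**Figure D1:**
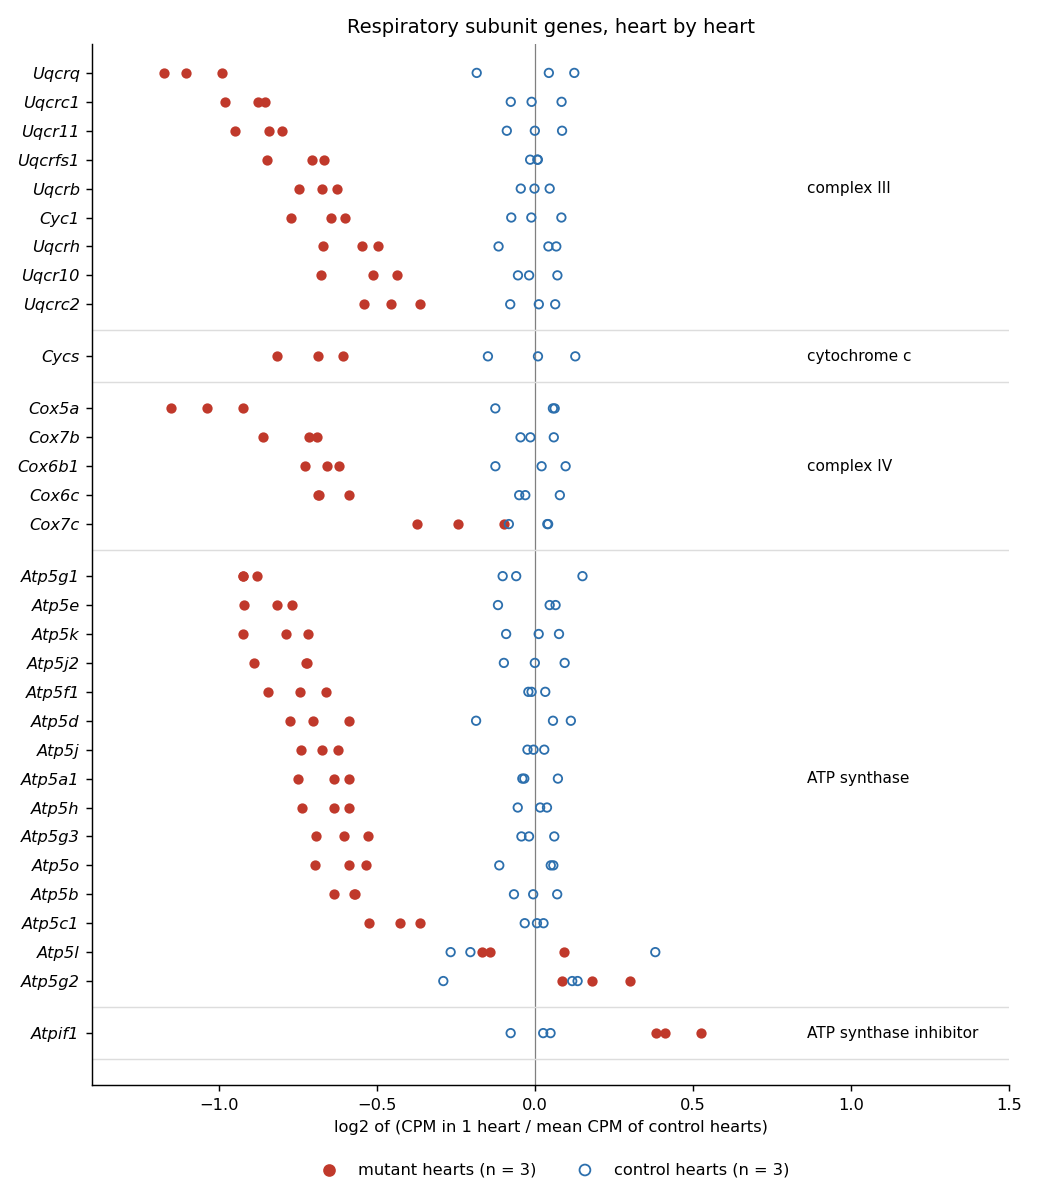
Each row is a gene and each point a heart, placed at the log2 of its CPM over the mean CPM of the control hearts. Filled points are the 3 mutant hearts and open points the 3 control hearts. In 28 rows the mutant hearts lie to the left of every control heart, in the Atpif1 row they lie to the right, and in the rows of Atp5l and Atp5g2 the groups overlap.

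Summed over the 31 genes, mutant hearts had 16455, 15242 and 16543 CPM, against 24272, 26243 and 25015 CPM in control hearts. Every mutant heart lay below every control heart, and the gap between the groups exceeded the range within either. The genes took 1.77% ± 0.0862 of all counts in mutant hearts and 2.28% ± 0.0931 in control hearts (SD, n = 3 each). In whole hearts, fewer heart muscle cells and less of these transcripts per cell cannot be told apart. The genes share the libraries they were measured in: mutant replicate 2 had the lowest value of its group for 27 of the 31 genes, and control replicate 2 the highest of its group for 18.

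The fall is relative to the median gene, which TMM holds at no change. Scaled by library totals alone, the median of all genes tested stood at 0.28, and 7479 genes were called higher and 1207 lower, where TMM gave 2688 and 2898. On that scale 25 of the 31 genes were still called lower and their median was -0.39, which is -0.67 relative to the median gene. Uqcrc2 and Atp5c1 were no longer called, with adjusted p of 0.0615 and 0.0677 in edgeR's test, Cox7c and Atp5l turned positive at 0.05 and 0.21 without being called, and Atp5g2 joined Atpif1 among the genes called higher.

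**Figure D2:**
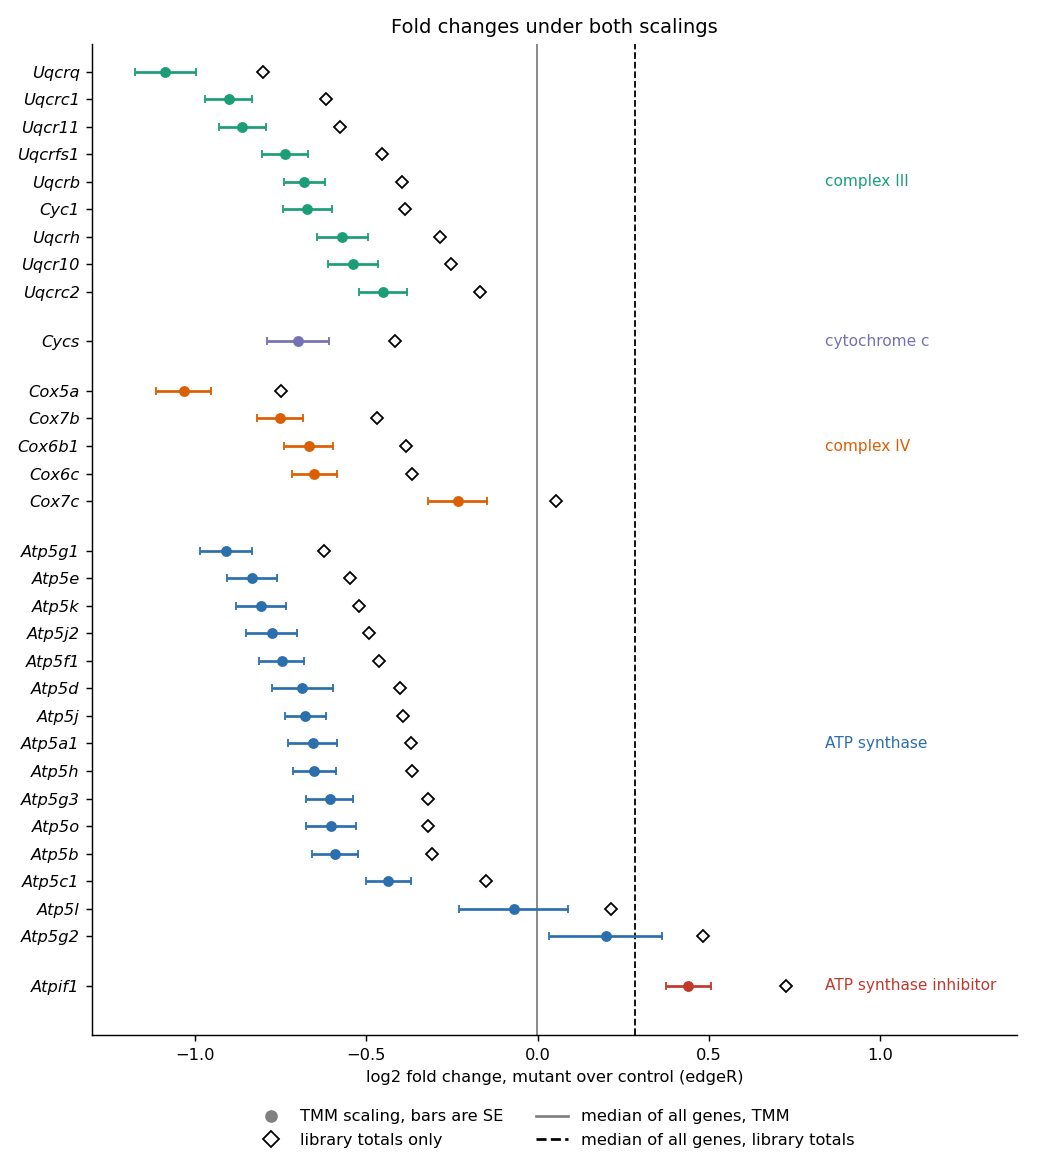
Filled points are log2 fold changes, mutant over control, with TMM scaling and bars of 1 SE, and open diamonds the same genes scaled by library totals. The solid line marks the median of all genes with TMM, -0.00, and the dashed line that with library totals, 0.28. With library totals the points lie further to the right, and Cox7c and Atp5l are the genes whose sign differs between the scalings.

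In complex III, the catalytic subunits from nuclear genes are Cyc1 and Uqcrfs1. Cyc1 is cytochrome c1 and hands the electron to cytochrome c, and Uqcrfs1 is the Rieske iron-sulfur protein that takes it from ubiquinol. Cyc1 (ENSMUSG00000022551, mm10 chromosome 15, 76343523 to 76346260, plus strand) had 552, 506 and 570 CPM in mutant hearts, against 821, 916 and 858 CPM in control hearts. Uqcrfs1 (chromosome 13, 30540308 to 30545362, minus strand) had 495, 437 and 481 CPM in mutant hearts, against 790, 789 and 777 CPM in control hearts. The groups were far apart for both genes, and the control hearts differed from each other by less for Uqcrfs1 than for Cyc1. The log2 fold changes were -0.67 ± 0.07 for Cyc1 and -0.74 ± 0.07 for Uqcrfs1 (SE), with adjusted p of 8.19e-05 and 2.89e-05 in edgeR's test.

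The core proteins Uqcrc1 and Uqcrc2 carry no redox centre and hold the complex together on the matrix side. Uqcrc1 (chromosome 9, 108936633 to 108949623, plus strand) had 706, 656 and 716 CPM in mutant hearts, against 1228, 1372 and 1285 CPM in control hearts. Uqcrc2 (chromosome 7, 120635176 to 120659524, plus strand) had 675, 597 and 634 CPM in mutant hearts, against 876, 908 and 823 CPM in control hearts. The groups were apart for both, with a narrower gap for Uqcrc2. Uqcrc1 fell 1.87-fold (log2 fold change -0.90 ± 0.07, SE) and Uqcrc2 fell 1.37-fold (-0.45 ± 0.07), the smallest fall within complex III. Uqcrc2 shares 19.7% of its exon bases with Pdzd9, which is read in the other direction and had 169 counts over all 6 hearts, against 224897 for Uqcrc2.

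The small subunits of complex III surround this core, and all 5 were lower. Uqcrq, a small membrane subunit, had the largest fold change of the 31 genes. It had 152, 145 and 164 CPM in mutant hearts, against 287, 356 and 336 CPM in control hearts, a 2.12-fold fall (log2 fold change -1.09 ± 0.09, SE; edgeR adjusted p = 1.53e-05). The hinge protein gene Uqcrh fell by 0.57, Uqcrb fell by 0.68 and Uqcr11 fell by 0.86 on the log2 scale. The smallest fall in this group was that of Uqcr10, with 174, 156 and 184 CPM in mutant hearts, against 240, 262 and 246 CPM in control hearts (log2 fold change -0.54 ± 0.07, SE). The groups were apart for both Uqcrq and Uqcr10, with the wider gap for Uqcrq.

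Cytochrome c, the small heme protein that shuttles electrons between the complexes, is encoded by Cycs (chromosome 6, 50562563 to 50566538, minus strand). Cycs had 16.4, 14.2 and 15.6 CPM in mutant hearts, against 27.4, 22.6 and 25.2 CPM in control hearts. The groups did not overlap, and the log2 fold change was -0.70 ± 0.09 (SE; edgeR adjusted p = 2.62e-04). Set against Cyc1 within each library, Cycs had 29.8, 28.1 and 27.3 counts per 1000 of Cyc1 in mutant hearts and 33.3, 24.7 and 29.4 in control hearts. These ranges overlap, and the mean log2 ratio differed by -0.03, less than its spread over hearts (exact permutation p = 0.9, two-sided, where 3 hearts against 3 cannot go below 0.1). Its level per length was low, at 4.96 RPKM in mutant hearts and 6.63 RPKM in control hearts, against 498 and 653 RPKM for Cyc1. Every 50-base window of the Cycs coding sequence also occurs in another annotated gene or pseudogene, so its count is uncertain.

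In complex IV the electron-carrying subunits come from the mitochondrial genome, and the nuclear subunits measured here surround them. Cox5a, a subunit on the matrix side, had 227, 210 and 246 CPM in mutant hearts, against 428, 487 and 485 CPM in control hearts. The groups were far apart, with a 2.05-fold fall (log2 fold change -1.03 ± 0.08, SE; edgeR adjusted p = 1.18e-05). Exons of Cox5a (chromosome 9, 57521274 to 57532426, plus strand) share 12.8% of their bases with Gm26631, a noncoding gene read in the other direction, which had 518 counts over all hearts, against 103635 for Cox5a. Cox6b1, which faces the intermembrane space, fell 1.59-fold, and the small membrane subunit genes Cox6c and Cox7b fell 1.57-fold and 1.68-fold.

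Cox7c, another small membrane subunit, was the exception in complex IV. It had 14.0, 15.3 and 16.9 CPM in mutant hearts, against 18.6, 18.6 and 17.1 CPM in control hearts. All mutant hearts lay below the control hearts, but the highest mutant heart and the lowest control heart were nearly level. The log2 fold change of -0.23 ± 0.09 (SE) had an edgeR adjusted p of 0.0608 and was not called, and it was called without mutant replicate 3 (-0.31, adjusted p = 0.0275). Its level per length, 14.9 RPKM in mutant hearts and 14.4 RPKM in control hearts, lay far below that of Cox7b, 286 and 396 RPKM. The RPKM of Cox7c, scaled by library total, do not show the lower level that CPM shows in mutant hearts.

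The F1 head of ATP synthase is built of alternating alpha and beta subunits, from Atp5a1 and Atp5b, around a central stalk of gamma, delta and epsilon, from Atp5c1, Atp5d and Atp5e. Atp5a1 and Atp5b had the highest levels per length of the 31 genes, 1132 and 1061 RPKM in mutant hearts and 1466 and 1314 RPKM in control hearts. Atp5b, the catalytic subunit (chromosome 10, 128083273 to 128090391, plus strand), had 4163, 3979 and 4153 CPM in mutant hearts, against 5899, 6486 and 6153 CPM in control hearts. It fell 1.51-fold (log2 fold change -0.59 ± 0.07, SE; edgeR adjusted p = 1.12e-04), and Atp5a1 fell 1.58-fold.

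The stalk subunits bracketed these values. Atp5e had 198, 185 and 205 CPM in mutant hearts, against 322, 365 and 361 CPM in control hearts, a fall of 0.83 on the log2 scale. Atp5d fell by 0.69. Atp5c1, the gamma shaft itself, had 937, 838 and 896 CPM in mutant hearts, against 1227, 1209 and 1177 CPM in control hearts, a log2 fold change of -0.44 ± 0.07 (SE; edgeR adjusted p = 6.58e-04). The groups were apart for Atp5e and Atp5c1. The fall of Atp5c1 was the smallest among the genes called lower, and it differed from that of Uqcrc2 by less than the SE.

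The c subunit, which forms the rotating ring in the membrane, is encoded by 3 genes whose proteins are known to differ in the targeting sequence and to mature to the same subunit. Atp5g3 had 1111, 1046 and 1172 CPM in mutant hearts, against 1640, 1762 and 1667 CPM in control hearts, a log2 fold change of -0.61 ± 0.07 (SE). Atp5g1 had 49.9, 49.9 and 51.5 CPM in mutant hearts, against 90.9, 105 and 88.2 CPM in control hearts, a log2 fold change of -0.91 ± 0.08 (SE). Atp5g2 was barely detected, with 2.03, 1.87 and 1.75 CPM in mutant hearts, against 1.81, 1.35 and 1.79 CPM in control hearts, and was not called (0.20 ± 0.16, SE; edgeR adjusted p = 0.377). The groups were apart for Atp5g3 and Atp5g1 and overlapped for Atp5g2.

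Of the summed RPKM of these 3 genes, Atp5g3 made up 97.8% ± 0.1 in mutant hearts and 97.5% ± 0.123 in control hearts (SD, n = 3 each). The share of Atp5g1 was 1.98% ± 0.0842 in mutant hearts and 2.42% ± 0.144 in control hearts, and that of Atp5g2 0.217% ± 0.0233 in mutant hearts and 0.124% ± 0.0239 in control hearts (SD, n = 3 each). All 3 shares separated the groups, with exact permutation p = 0.1, two-sided, the smallest that 3 hearts against 3 allow. They are parts of the same sum, so they are not 3 separate results. Atp5g3, which fell, makes up nearly all of that sum, and Atp5g2 itself was not called. Of the 50-base windows of the coding sequence, 93.3% for Atp5g1 and every one for Atp5g2 also occur in pseudogenes, so these shares are uncertain. Atp5g3 shares none.

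The peripheral stalk keeps the head from turning with the ring, and its 4 genes fell by similar amounts. Atp5f1, for subunit b, had 401, 353 and 379 CPM in mutant hearts, against 649, 629 and 625 CPM in control hearts, a log2 fold change of -0.75 ± 0.07 (SE; edgeR adjusted p = 2.65e-05). Atp5o, for the subunit that joins stalk and head, had 436, 405 and 452 CPM in mutant hearts, against 606, 678 and 682 CPM in control hearts, a log2 fold change of -0.60 ± 0.07 (SE). Atp5j and Atp5h lay between them, at -0.68 and -0.65. Atp5j shares 12.7% of its exon bases with Gabpa, which is read in the other direction. Gabpa, with a log2 fold change of 0.09, was not called. Atp5o shares 12.3% of its exon bases with another protein-coding entry of the same name and strand, which was not analysed here. In addition, 24.9% of the 50-base windows of the Atp5o coding sequence also occur in a pseudogene.

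Of the small membrane subunits, Atp5k for subunit e had 178, 162 and 187 CPM in mutant hearts, against 289, 325 and 310 CPM in control hearts, a fall of 0.81 on the log2 scale. Atp5j2, for subunit f, fell by 0.78. Atp5l, for subunit g, had 25.2, 21.4 and 21.1 CPM in mutant hearts, against 20.6, 19.7 and 30.8 CPM in control hearts. Control replicate 3 stood above the other 5 hearts, the groups overlapped, and the log2 fold change of -0.07 ± 0.16 (SE) was not called (edgeR adjusted p = 0.765). Without that heart it was 0.17, and still not called.

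Atpif1 encodes the small protein that binds the F1 head and blocks ATP hydrolysis by the enzyme when the proton gradient fails. It had 104, 94.6 and 96.4 CPM in mutant hearts, against 68.8, 73.8 and 75.0 CPM in control hearts. Every mutant heart was above every control heart, a 1.36-fold rise (log2 fold change 0.44 ± 0.07, SE; edgeR adjusted p = 6.31e-04). The rise was called under every alternative run, with log2 fold changes of 0.40 to 0.72. Exons of Atpif1 (ENSMUSG00000054428, chromosome 4, 132530555 to 132533659, minus strand) overlap an antisense gene, Gm12999, over 33.7% of their bases. That gene was not analysed here, and reads from the pair cannot be told apart with a kit that does not mark strand.

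Within each library, where scaling has no part, Atpif1 had 25.1, 23.8 and 23.2 counts per 1000 counts of Atp5b in mutant hearts and 11.7, 11.4 and 12.2 in control hearts. The groups stood well apart, and the ratio was 2.04-fold higher in mutant hearts. The exact permutation p was 0.1, two-sided, the smallest that this number of hearts allows.

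**Figure D3:**
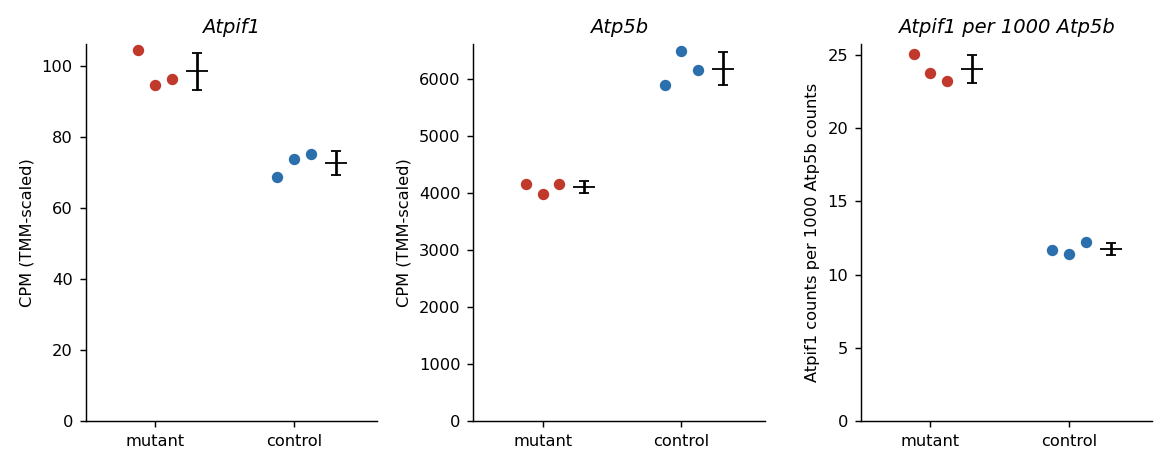
The panels show Atpif1 in CPM, Atp5b in CPM and Atpif1 counts per 1000 Atp5b counts, with a point for each heart and the mean ± SD of 3 hearts beside it, on axes that start at 0. Atpif1 is higher and Atp5b lower in mutant hearts, and the ratio lies between 23.2 and 25.1 in mutant hearts and between 11.4 and 12.2 in control hearts.

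The start of a gene is where regulators of respiratory genes are known to bind, among them NRF1, whose site is a pair of GCGC blocks. RefSeq promoter windows on GRCm38.p6, 250 bases before to 50 after a start, were matched for 25 of the 31 genes. The letters GCGC, then A, any base and GCGC, searched on both strands, were in the windows of 8 of these 25 genes, against 5.19% of the 27025 genes with a window. These were Atp5c1, Atp5g2, Atp5g3, Atp5h, Atp5k, Atp5o, Atpif1 and Uqcrc1, so they include genes that fell, the gene that rose and a gene not called. Below are stretches of 60 bases that lie before the RefSeq start of 4 genes, all on the minus strand, with bases counted from that start. They are bases -166 to -107 of Atpif1 (chr4:132535521-132535580), -75 to -16 of Atp5k (chr5:108434415-108434474), -166 to -107 of Atp5h (chr11:115420026-115420085) and -60 to -1 of Atp5c1 (chr2:10080433-10080492). They are shown since the same letters, in capitals, stand before the RefSeq start of the gene that rose and of genes that fell. The RefSeq start of Atpif1 used here lies upstream of the GENCODE M21 gene whose coordinates are given above. The stretch of Atp5c1 lies within its GENCODE M21 gene (10056016 to 10080510), and part of that of Atp5k lies within its gene (108433244 to 108434448).
Atpif1: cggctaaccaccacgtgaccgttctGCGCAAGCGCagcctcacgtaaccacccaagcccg
Atp5k: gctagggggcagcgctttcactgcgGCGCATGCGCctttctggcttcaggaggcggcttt
Atp5h: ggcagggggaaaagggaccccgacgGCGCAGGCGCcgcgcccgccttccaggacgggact
Atp5c1: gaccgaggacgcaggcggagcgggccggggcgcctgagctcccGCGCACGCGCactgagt

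Of the other letters searched on both strands, those of ETS factors such as GABPA, CCGGAAG, were in the windows of 8 of the 25 genes, against 9.93% of all genes, and those of YY1, AAGATGG, in 4, against 7.28%. The letters of the estrogen-related receptors, TCAAGGTCA, were in 1, Atp5g3, against 0.466% of all genes. A full direct repeat for the thyroid hormone receptor, AGGTCA, 4 further bases and AGGTCA again, was in none of the 25 and in 4 genes of 27025. Overlaps between motifs were not removed, no test was made, and a match of letters is not a binding site. Of the factors named, Nrf1, Gabpa and Yy1 were not called, with log2 fold changes of 0.14, 0.09 and -0.03, while Esrra fell by 0.26, Esrrb fell by 0.67 and Esrrg rose by 0.28.

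Many respiratory genes have processed pseudogenes, and how reads with several matches were counted is not given in the sources used here. Of the 31 genes, 15 have another annotated gene or pseudogene with at least 95% identity over at least 50% of the coding sequence. The 50-base windows of the coding sequence were searched only in these copies. Shorter or less similar matches, and sequence outside the annotation, were not covered, so a gene without such a copy counts as sharing none. Of the 17 genes with no window found in such a copy, 16 were called lower and 1, Atpif1, higher, with a median of -0.67. Of the 14 genes with some window shared, 11 were called lower and 3 were not called, with a median of -0.67. The genes with every window shared were Cycs, Cox7c, Atp5l and Atp5g2, and 3 of these 4 are the genes not called. Their levels per length in control hearts were 6.63, 14.4, 3.31 and 0.887 RPKM, the lowest of the 31 genes. Whether shared sequence plays a part in their fold changes was not tested.

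**Figure D4:**
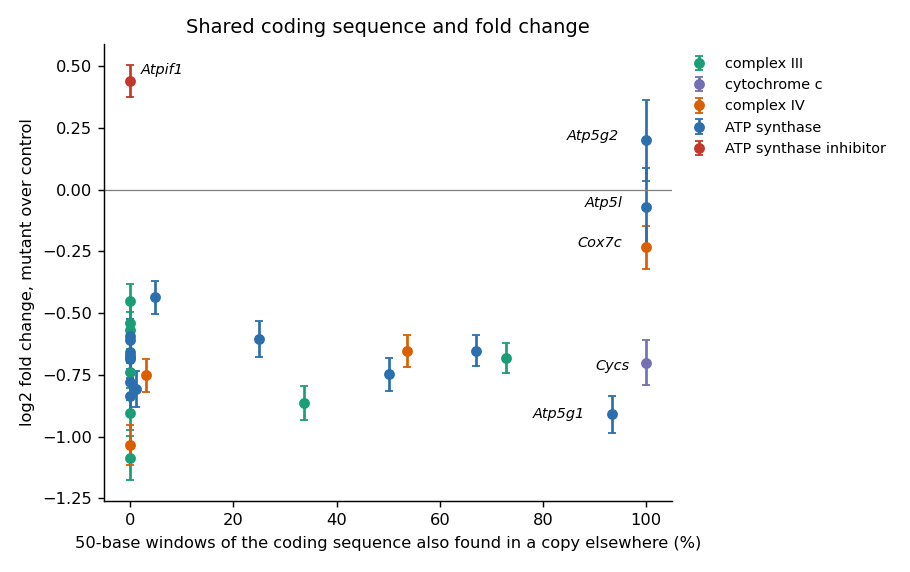
Each point is a gene, with the share of 50-base windows of its coding sequence that also occur in a copy elsewhere on the x axis and its log2 fold change, mutant over control with TMM, ± SE on the y axis. At 100% lie Cycs, called lower, and Cox7c, Atp5l and Atp5g2, not called. The genes called lower span -1.09 to -0.44, and Atpif1, at 0%, lies at 0.44.

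Across the 31 genes the fold change was set against level, size and shared sequence as a description. Spearman's rho with the mean RPKM in control hearts was -0.03, and with the length of the coding sequence 0.14, over 31 genes measured in the same 6 libraries. With the percentage of coding windows shared, the rho was 0.16. Over the 17 genes with no window found in an annotated copy, the rho with RPKM was 0.35.

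Each complex also has subunits from the mitochondrial genome. For complex III, mt-Cytb fell 1.71-fold, and the log2 ratio of Cyc1 to mt-Cytb differed by 0.10 between mutant and control hearts, less than its SD in either group (exact permutation p = 0.5, two-sided). For complex IV, mt-Co1 fell 1.58-fold. The log2 ratio of Cox5a to mt-Co1 was -7.52 ± 0.16 in mutant hearts and -7.14 ± 0.16 in control hearts (SD, n = 3 each). The exact permutation p was 0.1, two-sided, the smallest possible. Cox5a had the largest fall of the complex IV genes measured, 2.05-fold, where Cox6b1, Cox6c and Cox7b fell 1.59-fold, 1.57-fold and 1.68-fold. Cox7c was not called. The difference in this ratio therefore describes Cox5a and not the complex. For mt-Co2, mt-Co3 and mt-Atp6 the tables hold 0 to 2 counts per heart, so no ratio was taken for ATP synthase. How reads with several matches were counted is not given, so these counts are not read as levels of the transcripts. Why they are so low was not tested.

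Genes that help to assemble these complexes were lower in part. Of 6 for complex III, 4 were called lower, with log2 fold changes of -0.84 for Uqcc2 and -0.68 for Lyrm7, and the median of the list was -0.50. Of 21 measured for complex IV, 12 were called lower and 1 higher, with a median of -0.29. Taco1, a translational activator of mt-Co1, fell 1.64-fold and Coa5 1.64-fold, while Cox17, the copper chaperone that supplies the complex, had a log2 fold change of 0.27 ± 0.09 (SE; edgeR adjusted p = 0.0398). The mutant and control ranges of Cox17 overlapped. Of 7 assembly factors and further subunits of ATP synthase, 6 were lower, among them Atp5mpl 1.57-fold and the assembly factor Atpaf2 1.49-fold, with a median of -0.39. Hccs, which attaches heme to cytochrome c, fell 1.67-fold, and Chchd4 and Gfer of the import pathway for small intermembrane proteins were not called. Whether subunits and assembly factors differ was not tested.

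Other groups of genes of oxidative metabolism were lower too. All 36 nuclear genes of complex I were called lower, with a median of -0.68, all 4 of complex II, with a median of -0.53, and all 12 of the citric acid cycle, with a median of -0.64. Of 13 further genes of cytochrome oxidase and supercomplexes 7 were lower, among them Cox7a1 and Higd1a, with log2 fold changes of -1.67 and -1.27. No difference between these groups and the 31 genes was tested.

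**Figure D5:**
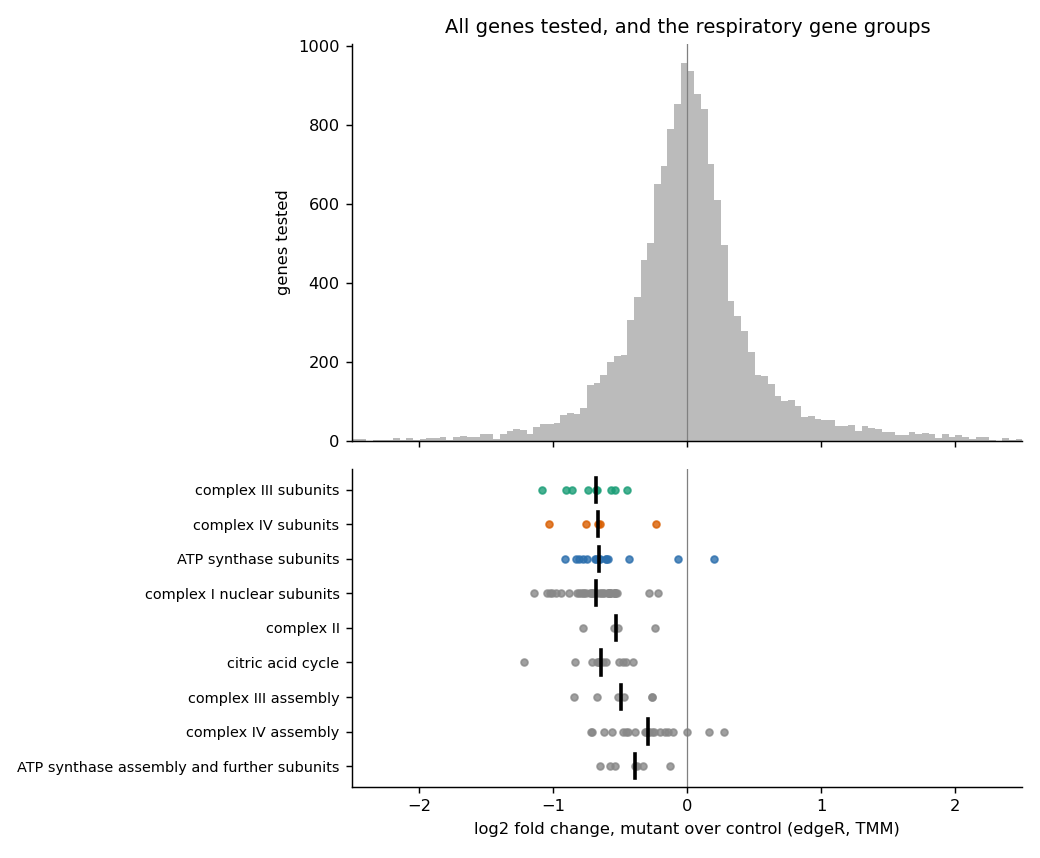
The upper panel counts the genes tested by log2 fold change, mutant over control with TMM, leaving out 138 genes beyond 2.5 in either direction. The lower panel shows each gene of 9 groups as a point and the median of each group as a bar: the medians of the subunit groups lie between -0.68 and -0.53 and those of the assembly groups between -0.50 and -0.29.

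Markers of the cell types of the heart moved unevenly. Of 8 heart muscle markers 6 were lower, among them Myh6 with a log2 fold change of -3.28. The sum of the 8 was 36839 to 39138 CPM in mutant hearts and 76179 to 85344 CPM in control hearts. That sum includes Myh6, and the median log2 fold change of the 8 markers was -0.58. Tnnt2 and Ttn had log2 fold changes of -0.05 and -0.08 and were not called. Endothelial markers were lower for 5 of 6, with summed levels of 1141 to 1210 CPM in mutant hearts and 1326 to 1443 CPM in control hearts. Macrophage markers were lower for 5 of 6, at 48.5 to 50.4 CPM in mutant hearts and 75.3 to 82.3 CPM in control hearts, and fibroblast markers higher for 3 of 6, at 1633 to 1802 CPM in mutant hearts and 1354 to 1533 CPM in control hearts. Of 6 smooth muscle and pericyte markers 1 was higher and 1 lower, at 1558 to 1655 CPM in mutant hearts and 1710 to 1833 CPM in control hearts, and none of 6 red blood cell markers was called, at 91.4 to 242 CPM in mutant hearts and 158 to 245 CPM in control hearts. The part of cell composition in the fall of the respiratory genes was not tested. Brown fat is another tissue rich in mitochondria: of 5 fat markers listed, Ucp1 had under 0.03 CPM on average in either group, Fabp4 and Pparg were lower, Cidea was not called, Plin1 was too low to test, and the summed level was 569 to 804 CPM in mutant hearts and 835 to 959 CPM in control hearts. Of 6 skeletal muscle markers, Myh1 and Myh2 were too low to test. Of the 4 tested, Ckm, which heart muscle also expresses, was lower and Myh4, Acta1 and Tnnt3 were not called, and the sum over the list was 843 to 922 CPM in mutant hearts and 1275 to 1479 CPM in control hearts.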

How the data were processed

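RNA from 6 mouse hearts was measured, 3 mutant and 3 control, with groups and replicate numbers taken from the sample titles. The kit was Illumina TruSeq version 2, per the labels' protocols, and does not mark strand. The deposited count tables hold whole numbers per Ensembl gene, and the deposited RPKM tables, made by the authors, hold those counts divided by gene length and library total. The submitters' processing notes name STAR 2.5.2b, featureCounts 1.5.1, cutadapt 1.9 and mm10 without saying in which order they were applied. Symbols came from GENCODE M21, which named 20081 identifiers.

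All 14877 genes kept were tested on counts with edgeR 4.0.16 under R 4.3.3 (filterByExpr, TMM, quasi-likelihood F test, group as the only term). The SE is the log2 fold change divided by the square root of F, an approximation. The fit was checked on simulated data. Alternatives used DESeq2 1.42.0, limma 3.58.1 on log2(RPKM + 1) and log2(RPKM + 0.1), other scalings, no filter, a replicate term and each heart left out. Ratios within a library were tested by exact permutation.

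The members and lists were chosen with earlier results of these data known. Values in every heart are given for Cyc1, Uqcrfs1, Cycs, Atpif1 and the c subunit genes, and in each group of subunits for the gene with the largest fall and the gene with the smallest change. Those of Atp5b are given beside Atpif1. From other lists, up to 2 called genes and those moving against the rest are named, and further genes were named after their values were seen. The comparison of coding sequences with annotated copies, in windows of 50 bases, was added after the fold changes were seen. Each p-value rests on the spread among 6 hearts from 1 study.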

Additional observations from a re-analysis of the deposited data

How the results depend on the processing

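Of 434 refits of single genes (31 genes under 14 alternatives), 418 kept their direction and their side of the threshold. With library totals the count of genes called over the whole table was 8686, against 5586, and 2 of the 31 genes were called higher, as also with limma on log2(RPKM + 1) and on log2(RPKM + 0.1). Cox7c turned positive under these 3 settings, at 0.053, 0.043 and 0.045, and Atp5l at 0.21, 0.18 and 0.23, and at 0.17 without control replicate 3 (lowest with a heart left out -0.19), none of them called. The cause was not tested. The log2 ratio of Cycs to Cyc1 was -0.03 with all hearts and lay between -0.14 and 0.076 with a heart left out, so its sign rests on single hearts. As shares of counts not divided by length, Atp5g1 differed by -0.949 percentage points and Atp5g3 by 0.879, against -0.445 and 0.353 of RPKM.

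Hearts with the same replicate number correlated at 0.15, -0.05 and 0.10 in their deviations from the group means. Those with different numbers correlated at -0.18 to 0.09. These few values cannot settle whether the numbers pair the hearts, and the main test took the hearts as unpaired. With the replicate block 27 of the 31 genes were lower and 1 higher, as without it, and over all genes 3229 were lower and 3090 higher. The count of lower genes lay between 27 and 28 with a heart left out. The planned ratio of Atp5b to mt-Atp6 could not be taken, since mt-Atp6 had 2 counts in all.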
